A study of Mus musculus with 4 samples.

Results

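The genes described here belong to the interleukin-6 family: the ligands Lif, Clcf1, Il11 and Il6, the receptor chains Lifr, Il6st, Osmr and Il11ra1, the transcription factor Stat3 and the inhibitor Socs3. They were chosen by gene symbol, with values of these arrays already known, and 9 of the 10 had a probe set annotated with that gene symbol alone. Probe sets annotated with several symbols were not used. These 9 genes, of 12393 on the array, had 21 probe sets of 22626 that are not controls. The expression of Il11ra1, the receptor chain specific for interleukin-11, was not analysed here, and only its promoter sequence was searched.

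RNA came from CH10T1/2 cells, a mouse fibroblast line of embryonic origin that can turn towards cartilage, bone, fat or muscle. Both lines compared were stably transfected, with PTHR1, which binds parathyroid hormone and PTHrP, in its wild-type form (WT cells below) or as the R150C variant found in enchondromas, benign cartilage tumours (R150C cells below). After a night without serum, each line was given PTHrP at 1e-07 M or carrier for 1 h, and each of the 4 groups is 1 array. The title of the WT control sample names no treatment, and carrier is taken from the series text. Each receptor is represented by 1 transfected line, so receptor and line cannot be told apart, and a difference between arrays has no replicate check.

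Ligands of this family bind receptor complexes on the cell surface that share the signalling chain encoded by Il6st, together with chains such as those encoded by Lifr and Osmr. Jak kinases bound to these chains then phosphorylate Stat3, which enters the nucleus and switches on genes, among them Socs3, whose protein blocks the receptor in return. In bone and cartilage these cytokines are known as signals between stromal cells and the cells that resorb or form matrix.

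The deposited value is a fluorescence intensity, called signal below. Log2 differences were taken on the scale log2(signal + 16) after each array had been centred on its median, so they understate the differences of dim probe sets, and a difference of 1 is 2-fold. The brightest probe set stood for each gene, and 6197 genes whose mean reached the median over genes, a signal of 62.6, are called kept genes. Of the 9 measured family genes 6 were kept, whereas Il6, Il11 and Lifr lay below the filter. The median signal was 52.2 and 44.7 in WT cells (control and PTHrP) and 48.1 and 45.8 in R150C cells. The kept genes had a median difference of 0.08 between the lines in control medium, -0.07 between them under PTHrP, 0.22 for PTHrP in WT cells and 0.05 for PTHrP in R150C cells, against which the values below should be read. All 8 fibroblast markers were kept, with a summed signal from 29624 to 32790 in WT cells and from 25502 to 28757 in R150C cells. Of 19 measured markers of macrophages, endothelium, epithelium and lymphocytes 3 were kept. Macrophage markers summed to a signal of 272.4 and 333.5 in the WT arrays and 275.4 and 317.7 in the R150C arrays, and endothelial ones to 95.5 and 113.9 against 104.4 and 143.6. Epithelial markers summed to 87.0 and 108.1 against 107.0 and 126.7, and lymphocyte ones to 33.3 and 43.2 against 38.0 and 43.3. No marker was listed at 0, and their part in the differences below was not tested.

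Cells with the variant were set against cells with the normal receptor to ask which transcripts differ between them. All 4 ligand genes read higher in R150C cells, by 2.57-fold to 6.68-fold in control medium and by 2.39-fold to 4.73-fold under PTHrP. The receptor chains Il6st and Lifr read slightly lower there by their brightest probe sets. Osmr and Stat3 read higher, by 1.82-fold and 1.55-fold in control medium and by 1.26-fold and 1.11-fold under PTHrP. Socs3 lay within the range of the ligands in control medium, at 2.72-fold, and below it under PTHrP, at 1.67-fold. Because the genes were chosen with this contrast in view, these values are a description and were not tested.

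Lif, leukemia inhibitory factor, read 22.4 and 29.9 in WT cells (control, PTHrP) and 225.2 and 194.3 in R150C cells. Both R150C arrays lie far above both WT arrays, where the probe set was brighter than 32.0% and 41.5% of all probe sets and so in the dim part of the array. The log2 difference between the lines was 2.74 in control medium and 2.17 under PTHrP, which put Lif at rank 9 and rank 17 from the top among the kept genes. Its WT signals lie below the filter level of 62.6, so Lif is a kept gene through its R150C arrays. The plain ratio of the signals was 10.1 in control medium and 6.50 under PTHrP. A second Lif probe set (1450160_at) read 10.7 and 9.6 in WT cells and 9.0 and 21.5 in R150C cells. It stayed in the dimmest 33.9% of each array and showed no such step, with differences of -0.01 and 0.52.

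Clcf1, cardiotrophin-like cytokine factor 1, a ligand that signals through Cntfr, Lifr and Il6st, has 3 probe sets, each above the middle of every array. Its brightest probe set (1437271_at) read 129.1 and 105.4 in WT cells against 709.4 and 568.4 in R150C cells. Another (1437270_a_at) read 66.3 and 78.7 against 517.0 and 442.0, and the last (1450262_at) read 126.0 and 80.1 against 365.0 and 241.3. In each probe set both R150C arrays lie above both WT arrays. The log2 differences in control medium were 2.41, 2.78 and 1.51 in that order, and those under PTHrP were 2.24, 2.25 and 1.39. Clcf1 stood at rank 18 in control medium and rank 13 under PTHrP among the kept genes.

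Il11, a cytokine that acts on stromal cells and on the cells of bone, read 14.7 and 13.5 in WT cells and 99.0 and 66.9 in R150C cells. In the WT arrays that is brighter than 24.4% and 26.2% of the probe sets, and in the R150C arrays than 65.0% and 57.8%. The log2 difference was 1.99 in control medium and 1.46 under PTHrP. Il6, the founding member of the family and a cytokine of inflammation, read 27.5 and 22.3 against 89.2 and 77.2. Its differences were 1.36 and 1.26. Both genes have 1 probe set each, and in both the 2 R150C arrays lie above the 2 WT arrays.

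**Figure D1:**
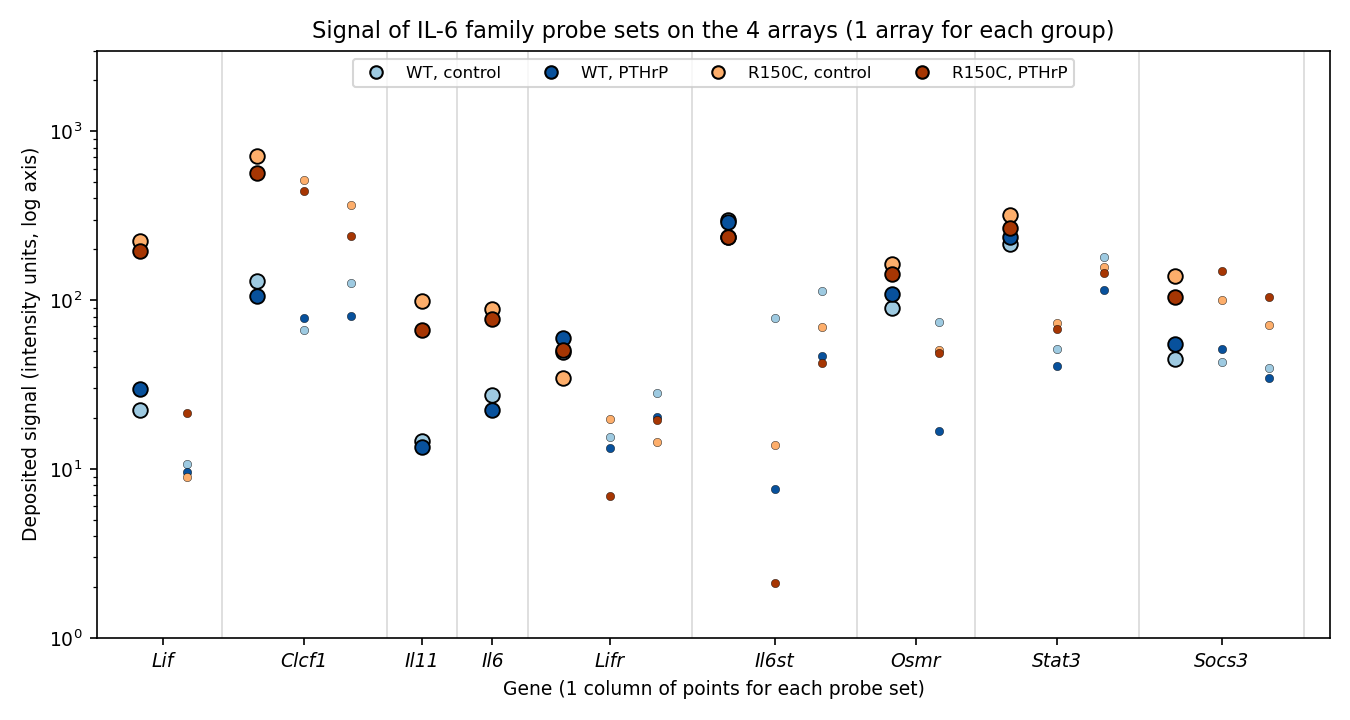
Deposited signal (log axis) of the 21 probe sets of 9 IL-6 family genes on the 4 arrays; each point is 1 array, large points are the brightest probe set of a gene and small points its other probe sets. The R150C arrays (orange, brown) lie above the WT arrays (blue) in Clcf1, Il11, Il6, Socs3 and the brightest Lif probe set, and overlap them in the brightest Lifr probe set and in the dimmer Il6st and Osmr probe sets.

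Windows before the gene starts are shown for Lif, Il6, Il11 and Socs3, since these genes stood high in R150C cells and each window holds a match to 1 of the motifs searched. RefSeq promoter sequences (build GRCm38.p6) held 12 windows for 9 of the 10 genes, with none for Clcf1, which was not searched. In the 250 bases before each start, both strands were searched for TTCNNNGAA, bound by Stat factors, for TGACGTCA, the cAMP response element, and for TGANTCA, bound by AP-1, the dimers of Fos and Jun proteins. Capitals mark the matches, and no match overlapped another.
Lif, chr11:4257318-4257567, plus strand: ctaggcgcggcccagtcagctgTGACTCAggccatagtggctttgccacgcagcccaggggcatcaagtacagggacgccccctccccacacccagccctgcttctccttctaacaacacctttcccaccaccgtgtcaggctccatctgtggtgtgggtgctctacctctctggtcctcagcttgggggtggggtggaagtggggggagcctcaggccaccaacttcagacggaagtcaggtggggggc
Il6, chr5:30012864-30013113, plus strand: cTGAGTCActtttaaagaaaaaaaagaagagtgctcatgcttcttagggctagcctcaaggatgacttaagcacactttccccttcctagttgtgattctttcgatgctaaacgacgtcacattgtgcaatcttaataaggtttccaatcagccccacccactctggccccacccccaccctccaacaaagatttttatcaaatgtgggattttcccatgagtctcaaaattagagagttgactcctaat
Il11, chr7:4778142-4778391, minus strand: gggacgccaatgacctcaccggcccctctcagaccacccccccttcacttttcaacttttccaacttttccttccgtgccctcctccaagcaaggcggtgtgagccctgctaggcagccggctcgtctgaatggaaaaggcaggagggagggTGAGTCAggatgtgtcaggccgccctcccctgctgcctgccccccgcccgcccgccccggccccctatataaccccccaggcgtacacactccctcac
Socs3, chr11:117969367-117969616, minus strand: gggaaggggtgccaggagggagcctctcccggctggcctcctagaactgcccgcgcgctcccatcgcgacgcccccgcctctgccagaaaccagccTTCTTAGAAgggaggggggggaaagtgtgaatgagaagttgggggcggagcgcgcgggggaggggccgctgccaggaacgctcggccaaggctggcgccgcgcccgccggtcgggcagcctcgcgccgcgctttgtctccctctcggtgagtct
The AP-1 letters begin 228 bases before the start in Lif, 249 in Il6 and 98 in Il11. They were found in 3 of the 4 windows of Lif, Il6 and Il11 and in 0 of the 8 windows of the other family genes, and 6.75% of all 32851 promoter windows of this length hold them. Il11 has a further window, which held no match. The Stat letters occurred in 1 window, that of Socs3, 154 bases before its start, and 7.02% of all windows hold them. The full letters TGACGTCA of the cAMP response element were in 0 of the 12 windows and are in 1.55% of all. Partial forms, such as gacgtca in the Il6 window, were not searched, so the count does not show that such elements are absent. These matches describe the letters alone, and no binding was measured.

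The receptor chains showed no step of that size in their brightest probe sets. Il6st, the shared signalling chain, read 297.2 and 291.5 in WT cells (control, PTHrP) and 238.0 and 235.9 in R150C cells. Both R150C arrays lie below both WT arrays, with log2 differences of -0.21 in control medium and -0.31 under PTHrP. Lifr, the chain that binds Lif, read 49.3 and 59.7 against 34.8 and 50.7, differences of -0.27 and -0.21. Its lines overlap, as the WT control array lies between the R150C arrays. Its other 2 probe sets read from 6.9 to 28.2 over the 4 arrays. Osmr, the chain for oncostatin M, read 89.8 and 108.7 against 164.8 and 143.7, differences of 0.86 and 0.33, and here the R150C arrays lie above the WT arrays. A second Osmr probe set (1418675_at) read 74.0 and 16.9 against 51.0 and 48.4, with differences of opposite sign, -0.34 in control medium and 0.94 under PTHrP.

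Stat3 read 213.6 and 235.3 in WT cells and 317.5 and 267.1 in R150C cells by its brightest probe set. The R150C arrays lie above the WT arrays, but the difference went from 0.63 in control medium to 0.15 under PTHrP. A second Stat3 probe set (1426587_a_at) read 179.7 and 114.9 against 158.1 and 145.4 and so overlapped between the lines. The last (1424272_at) read 51.7 and 40.5 against 73.0 and 67.7, differences of 0.48 and 0.54.

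Socs3, the feedback inhibitor, read 44.8 and 54.8 in WT cells and 139.4 and 104.5 in R150C cells by its brightest probe set (1416576_at). The other probe sets read 43.1 and 51.1 against 99.9 and 149.3 (1455899_x_at) and 39.4 and 34.5 against 71.5 and 104.3 (1456212_x_at). All 3 have both R150C arrays above both WT arrays. The differences in control medium were 1.44, 1.06 and 0.75 in that order, and under PTHrP 0.74, 1.27 and 1.23. The probe sets therefore do not share an order of the media within R150C cells.

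Over the kept family genes, 3 of 6 (Lif, Clcf1 and Socs3) were at least 2-fold higher in R150C cells in control medium, where 2.87% of all kept genes were. Under PTHrP 2 of 6 were, against 2.16%, and the same 2 genes, Lif and Clcf1, were so in both media, against 1.61%. The filter takes the mean over all 4 arrays. Lif (22.4 and 29.9) and Socs3 (44.8 and 54.8) read below its level of 62.6 in WT cells. Both were thus kept through their R150C arrays, which bears on these counts. Without the filter the counts were 5 and 4 of 9, against 2.45% and 1.92% of all 12393 genes, and 4 of 9 were higher in both media, against 0.968%. Those 4 were the ligand genes. By the brightest probe set 0 of the 9 were at least 2-fold lower in either medium, where 0.783% and 1.12% of all genes were. The median over the 9 genes was 1.36 in control medium and 0.74 under PTHrP, where that over all genes was 0.09 and -0.05. By probe set, 8 of 21 were at least 2-fold higher in each medium, against 2.07% and 1.84% of the 20380 probe sets with 1 gene symbol. At least 2-fold lower were 1 of 21 in control medium, against 1.43%, and 0 of 21 under PTHrP, against 1.13%. The 1 was the Il6st probe set 1421239_at, with differences of -1.57 and -0.41. The choice of genes rested on this contrast, so nothing is read from these counts. Over the scalings, pseudocounts and probe set rules tried, the differences of the ligand genes ran from 0.80 to 3.39 in control medium and from 0.70 to 2.63 under PTHrP, a range that describes the processing alone.

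**Figure D2:**
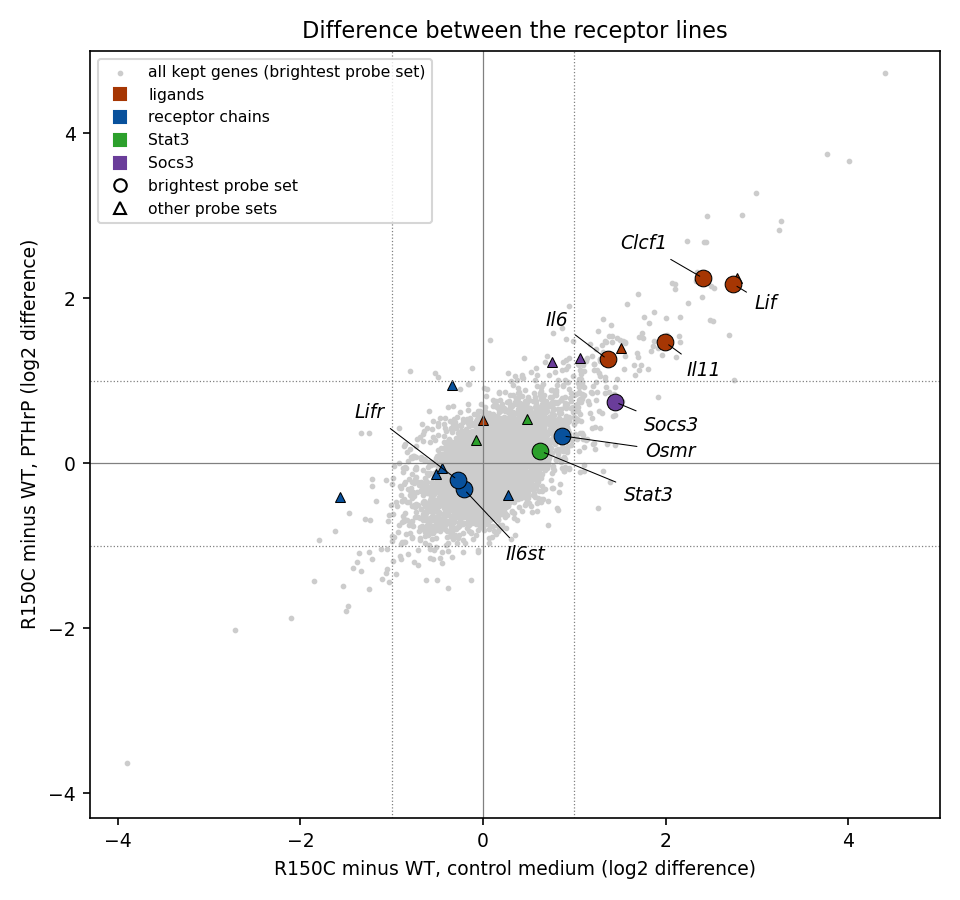
Log2 difference between R150C and WT cells in control medium (x axis) and under PTHrP (y axis), with 1 grey point for each of the 6197 kept genes, circles for the brightest and triangles for the other probe sets of the family genes, and dotted lines at 2-fold. The circles of the 4 ligand genes lie beyond 2-fold on both axes, at 1.36 to 2.74 and at 1.26 to 2.24, that of Socs3 on the x axis alone, and those of the receptor chains within 2-fold; among the triangles, 1 of Il6st lies at -1.57 on the x axis and the second Lif probe set at -0.01 and 0.52.

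By the rule for likeness, the kept genes closest to Lif over the 4 arrays were Phlda1, Fosl1, Pvr, Plaur and Bhlhe40. Likeness is the root mean square distance of the log2 values, each gene minus its own mean, and was 0.09 for Phlda1, 0.10 for Fosl1, 0.17 for Pvr, 0.18 for Plaur and 0.20 for Bhlhe40. Its median over 6191 genes was 1.24. Clcf1, left out of that ranking as a family gene, lay at 0.20. Phlda1 read 408.4 and 433.2 in WT cells and 2276.3 and 1980.1 in R150C cells, and Fosl1, which encodes a Fos protein of the AP-1 dimers, read 228.4 and 233.4 against 1283.7 and 1107.3. With 4 arrays such a profile is mostly the step between the lines.

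The PTHrP comparisons asked what 1 h of ligand does to these genes in each line. In the WT line the differences of the brightest probe sets ran from -0.09 in Clcf1 to 0.43 in Lif, where the kept genes had a median of 0.22. In the R150C line they ran from -0.42 in Il11 to 0.45 in Lifr, where that median was 0.05. No gene of the 9 differed 2-fold in either line by its brightest probe set, in a background of 0.799% of all genes higher and 0.436% lower in WT cells and 0.468% and 0.621% in R150C cells. The ligand genes that stood high in R150C cells all read lower after PTHrP there, by -0.15 in Lif, -0.26 in Clcf1, -0.42 in Il11 and -0.12 in Il6, although Lif stood at 0.25 with both of its probe sets averaged. The R150C control array enters both these values and the differences between the lines above. The spread between a pair of arrays was 0.25 (SD, log2), taken from how far kept genes depart from additivity, so Lif lies within it and Clcf1 just outside. Il11 and Il6 lie below the filter, and the spread of such dim genes was not estimated. Lifr read 49.3 and 59.7 in WT cells and 34.8 and 50.7 in R150C cells, the one brightest probe set with a difference above 0.3 in both, at 0.38 and 0.45. With all 3 of its probe sets averaged the differences of Lifr were 0.11 and 0.04, and on uncentred values the first was 0.21.

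The effect of PTHrP over both lines was tested with limma's additive model of receptor and treatment over the 6197 kept genes. Of the 6 kept family genes 0 passed a Benjamini-Hochberg adjusted p of 0.05, where 0.403% of the kept genes did. At an unadjusted p under 0.05 there were 0 of 6, against 8.65% of the kept genes. The fitted differences were 0.14 in Lif, -0.17 in Clcf1, 0.09 in Il6st, 0.14 in Osmr, 0.06 in Stat3 and 0.04 in Socs3, each with a limma SE of 0.19, and the smallest limma adjusted p among them was 0.765 in Clcf1. The fit has 1 residual degree of freedom, and its error is the departure from additivity. The equal SE shows that this error was shared over genes. A gene whose response differs between the lines is therefore not held back by its own departure and can still be called. The fit does not show that these genes were unaffected.

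Dimmer probe sets of Il6st and Osmr behaved otherwise. The Il6st probe set 1421239_at read 78.0 without and 7.6 with PTHrP in WT cells, and 13.8 without and 2.1 with PTHrP in R150C cells. Another Il6st probe set (1460295_s_at) read 112.9, 46.8, 68.9 and 42.6 in the same order. In both, PTHrP arrays lie below the control array of their own line, by -1.83 and -0.87 in WT cells and by -0.67 and -0.48 in R150C cells, while the brightest Il6st probe set differed by 0.14 and 0.04. The second Osmr probe set differed by -1.28 in WT cells and by less than 0.01 in R150C cells. By probe set 2 of 21 were thus at least 2-fold lower after PTHrP in WT cells, where 1.49% of all probe sets were, and 0 of 21 in R150C cells, where 0.599% were. The ratio of the 3' to the 5' control probe set of Gapdh, which reads the integrity of the RNA and its labelling, was 0.845 without and 1.17 with PTHrP for WT cells and 0.991 without and 1.21 with PTHrP for R150C cells. That of beta-actin was 1.42, 2.39, 2.13 and 2.31 in that order. The array with the lowest Gapdh ratio thus had the highest signal of Il6st probe set 1421239_at, and the array with the highest ratio the lowest signal. The beta-actin ratio was likewise lowest in the WT control array, which read 78.0. Its highest value was in the WT PTHrP array, which read 7.6 and not the lowest signal. The second Osmr probe set read 74.0 without and 16.9 with PTHrP in WT cells, and 51.0 without and 48.4 with PTHrP in R150C cells. That probe set was thus highest in the WT control array and lowest in the WT PTHrP array, which did not have the highest Gapdh ratio. The part of RNA integrity in these values was not tested.

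**Figure D3:**
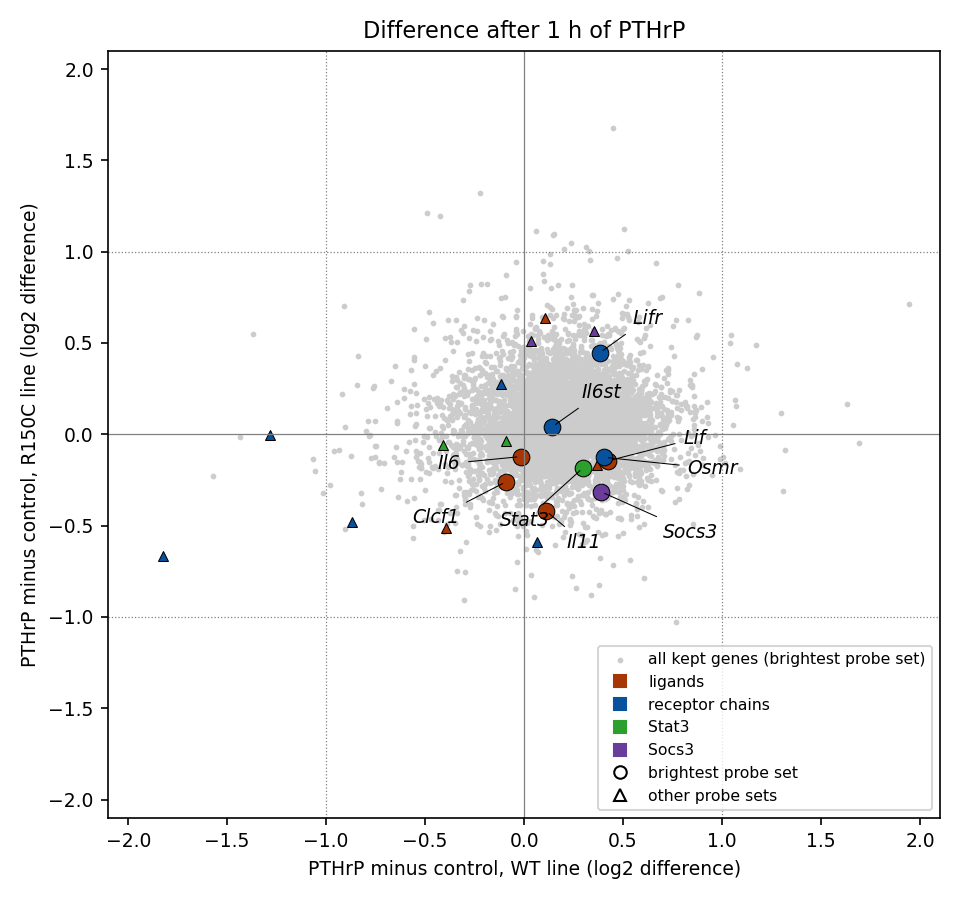
Log2 difference after 1 h of PTHrP in WT cells (x axis) and in R150C cells (y axis), with 1 grey point for each of the 6197 kept genes, circles for the brightest and triangles for the other probe sets of the family genes, and dotted lines at 2-fold. All circles lie within 2-fold, and the triangles beyond it are the Il6st and Osmr probe sets at -1.83 and -1.28 on the x axis.

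Other genes of the pathway were read from lists by role. Of 12 further ligands and receptors 6 were measured and 2 kept. Il6ra, the chain that binds interleukin-6, differed between the lines by -0.74 in control medium and 0.07 under PTHrP, and the ligand gene Ctf1 by -0.42 and -0.18. Cntfr lay below the filter with signals of 33.6 and 14.5 in WT cells and 42.3 and 25.0 in R150C cells. Of 12 kinases, Stats and adaptors 11 were measured and 8 kept, and 0 of these 8 were 2-fold apart in either medium, where 2.87% of all kept genes were higher and 0.565% lower in control medium and 2.16% and 0.726% under PTHrP. Jak1, the main kinase of this receptor complex, differed by -0.04 and -0.16, Jak2 by -0.19 and 0.27 and Tyk2 by -0.08 and -0.35. Gab1, an adaptor that carries the signal to ERK and PI3 kinase, came nearest to 2-fold, at -0.90 and -0.98.

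Of 16 inhibitors all were measured and 12 kept, and 1 of these, Socs5, was 2-fold higher in both media, against 1.61% of all kept genes. Socs5, a Socs family protein, differed by 1.05 and 1.02. Its relative Socs6 differed by 0.58 and 1.15, and Cish, a Stat-induced family member, by 0.86 and 0.66. The medians of the kept inhibitors were 0.20 and 0.22, where those of all kept genes were 0.08 and -0.07. The counts and medians of this list include Il1rn (-0.12 and -0.37), which encodes an inhibitor of the interleukin-1 receptor rather than of this pathway. Ptpn2, a phosphatase that acts on Jak and Stat proteins, passed the limma test for PTHrP over both lines (1.06, adjusted p 4.44e-05), on differences of 0.45 in WT cells and 1.68 in R150C cells. It was not called without centring, after quantile normalization, when centred on the kept genes or with all its probe sets averaged.

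The last list held 25 genes that Stat3 is known to induce in other cells, of which 25 were measured and 18 kept. Of these 18, 6 were at least 2-fold higher in R150C cells in both media, against 1.61% of all kept genes, and 1 was lower, against 0.323%. The 6 higher genes were Junb (1.96 and 1.31), Myc (2.44 and 2.68), Pim1 (2.75 and 1.01), Vegfa (2.42 and 2.68), Ier3 (1.56 and 1.47) and Fosl1 (2.50 and 2.15), and the lower one was Fos (-1.06 and -1.33). The list median was 0.73 in control medium and 0.39 under PTHrP. Several of these genes are also early genes of other growth factor pathways, and the list was drawn up with some of their values known. Some targets often used to read Stat3 in inflamed tissue, named after their values were seen, lay below the filter. Saa3 read 23.1, 9.1, 36.1 and 23.0 (WT control, WT PTHrP, R150C control, R150C PTHrP), Lcn2 20.3, 12.7, 11.7 and 12.8, and Hp 1.8, 2.1, 2.9 and 3.2. Between the lines (control medium, PTHrP) Saa3 differed by 0.50 and 0.61, Lcn2 by -0.30 and -0.02 and Hp by 0.18 and 0.06. The other list genes below the filter were Icam1 (0.54 and 0.59), Il4ra (0.65 and 0.81), Bcl3 (0.40 and -0.18) and Bcl6 (-0.38 and -0.29). Pim1, a kinase gene, also passed the limma test for PTHrP (0.82, adjusted p 0.0100), with differences of 1.69 in WT cells and -0.05 in R150C cells, and was not called under any other setting tried. It read 9.6, 57.7, 145.5 and 134.6 in the same order of arrays. The values of 1.69 and 2.75 thus rest on the dim WT control reading, and Pim1 passed the filter level of 62.6 through its R150C arrays.

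**Figure D4:**
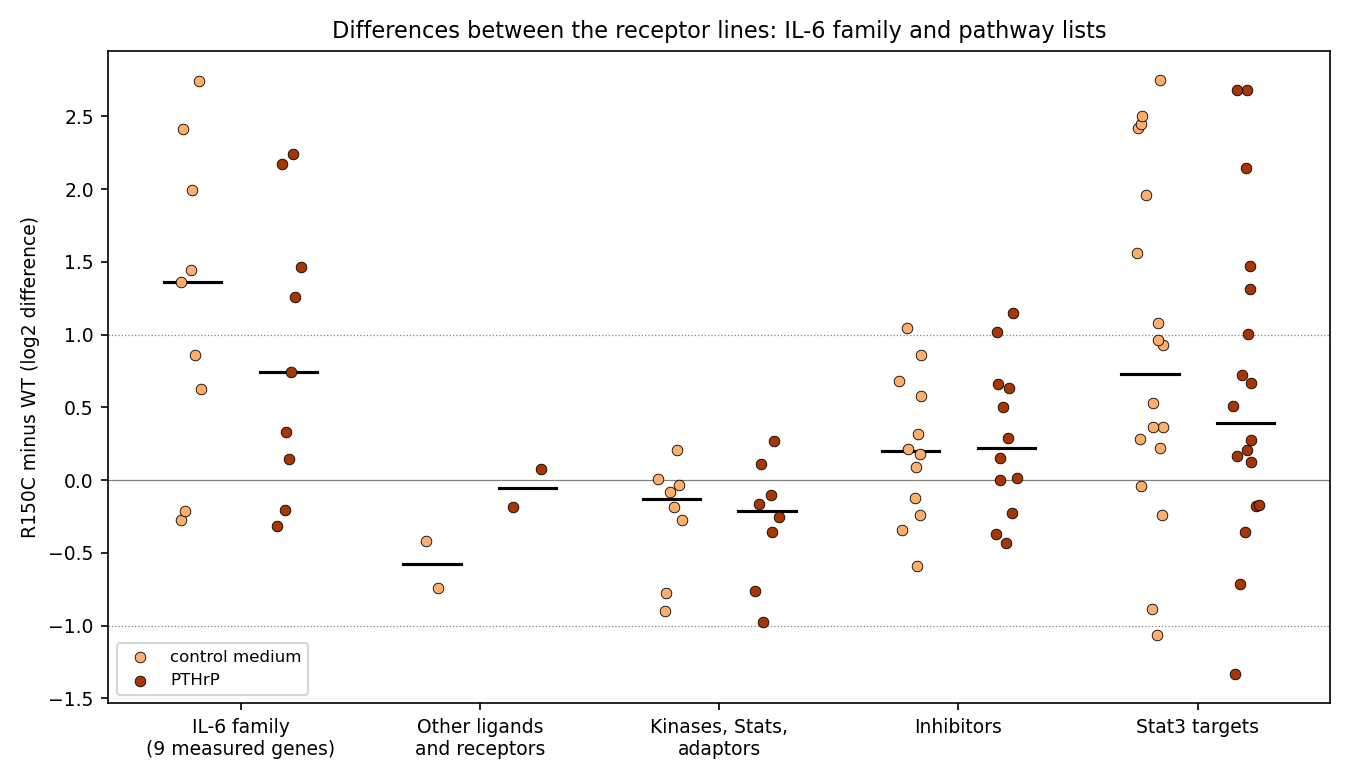
Log2 difference between R150C and WT cells in control medium (orange) and under PTHrP (brown) for the 9 measured IL-6 family genes and for the kept genes of 4 pathway lists, with 1 point for each gene, a bar at the list median and dotted lines at 2-fold. The family and the Stat3 targets reach from below 0 to 2.74 and 2.75 in control medium, while the kinases, Stats and adaptors lie between -0.98 and 0.27 over both media.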

How the data were processed

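Intensities of 22690 probe sets on 4 Affymetrix Mouse Genome 430A 2.0 arrays were taken as deposited. Per the submitters' processing notes, the authors used Affymetrix Expression Console; version and summarisation method: not given in the sources used here. Trimmed by 2% at both ends, the mean signal was 150.1 on each array, so a global scaling is part of the values. There are no detection calls.

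The 64 control probe sets were left out. Of the rest, 20380 had 1 gene symbol, 691 several and 1555 none or were not listed. Values were log2(signal + 16), centred on each array's median. Genes at or above the median gene mean were kept. The PTHrP term was tested with limma 3.58.1 in R 4.3.3, and receptor differences were not tested. The limma fit was run on simulated data with equal noise in every gene and no shift between arrays. Such data cannot show how it behaves where arrays are shifted, as they are here. All family genes are named, with list genes 2-fold apart in both media or past limma's threshold, the 5 genes most like Lif, and others named after their values were seen. The family genes and lists were chosen with earlier results of these data known. Alternatives changed the centring, pseudocount, probe set rule and filter. P-values rest on the spread among these 4 arrays, whose number limits the precision.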

Additional observations from a re-analysis of the deposited data

Results flagged for a closer look

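Socs3 had PTHrP differences of opposite sign in the lines, each above the spread of 0.25 (SD, log2) between a pair of arrays: 0.39 in WT cells and -0.31 in R150C cells by its brightest probe set. The difference between these responses was not tested. The other Socs3 probe sets read 0.35 and 0.03 in WT cells and 0.56 and 0.51 in R150C cells, and so did not share the opposite signs. With all 3 averaged the differences were 0.26 and 0.25, of the same sign. On uncentred values and when centred on the kept genes the value in WT cells was 0.22 and 0.20, below that spread. The median over the kept genes was 0.22 in WT cells and 0.05 in R150C cells.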

How the results depend on the processing

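Counts of family genes at least 2-fold higher in R150C cells moved with the filter. Without it they were 5 in control medium, 4 under PTHrP and 4 in both media, and with it at the 75th percentile, where 3 family genes remained, 1, 1 and 1. Under every other setting these counts were within 1.5 times of 3, 2 and 2, although with all probe sets averaged the genes counted differed, as Lif fell below the filter and Il6 passed it. The counts at least 2-fold lower, 2-fold changed by PTHrP and called by limma were 0 under every setting.

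When all probe sets of a gene were averaged, Lif stood at 1.37 and 1.35 between the lines (control, PTHrP), Socs3 at 1.08 and 1.08, and Il6st at -0.76 in control medium. The PTHrP difference of Il6st was then -0.85 in WT cells and -0.37 in R150C cells, with a limma adjusted p of 0.105 and an unadjusted p of 0.000532. Under the same rule the PTHrP difference of Osmr turned from 0.41 to -0.44 in WT cells, and that of Lif from -0.15 to 0.25 in R150C cells. With a pseudocount of 64 Il6 was under 2-fold, at 0.80 and 0.70, as were Il11 under PTHrP, at 0.74, and Socs3 in control medium, at 0.95. For PTHrP limma called 25 of all kept genes, 1 on uncentred values, 0 after quantile normalization (329 at an unadjusted p under 0.05) and 0 with arrays centred on kept genes (345).

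The limma fit holds the line as a term and so compares PTHrP with control within each line. No further pairing was possible, because each group has 1 array and the labels give no replicate numbers. No array was left out in turn, as that would empty a group. Dim probe sets, Lif and Il11 in WT cells among them, have no detection call, so their ratios depend on the pseudocount.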
